A study of Homo sapiens and Mus musculus with 27 samples.

Results

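The 10 genes described here are the G1 cyclins CCND1, CCND2, CCND3, CCNE1 and CCNE2 and the E2F factors E2F1, E2F2, E2F3, E2F7 and E2F8. They were taken by gene symbol, ignoring letter case, from 59453 gene names in 2 human count tables and from 55367 in 1 mouse table. CCND1 spans chr11:69641156-69654474, CCND2 chr12:4269771-4305353 and CCNE1 chr19:29811991-29824312 on the plus strand of GRCh38, and E2F1 chr20:33675477-33686385, E2F7 chr12:77021248-77065569 and E2F8 chr11:19224063-19241620 on the minus strand. All 10 were found in each table, and all 10 passed the filter on low counts in each. The RNA came from breast cancer cell lines in 3 experiments with 3 groups of 3 replicates, 27 libraries in all. LM2 is a lung-seeking derivative of the human line MDA-MB-231, and 4T1 is a mouse mammary carcinoma line. MKL1, now named MRTFA, is an actin-regulated coactivator of serum response factor.

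In the LM2 experiment the groups were cells overexpressing caMKL1, cells overexpressing wild-type MKL1, and control cells with the genotype label WT. The 4T1 experiment had the same 3 groups, caMKL1, wild-type MKL1 and control. The third experiment used LM2 cells in 3 classes of LifeAct expression, negative, low and high. LifeAct is a peptide that binds filamentous actin, and the negative cells carry the treatment label control. The labels name no promoter, vector, clone or culture time for any group. In both lines the genotype label of the caMKL1 libraries changes with the replicate (caMKL1, caMKL2, caMKL3), whereas title and treatment give caMKL1 throughout, and they were taken as 3 replicates. The labels do not say that replicates were separate cultures, so each p-value measures only the spread between these libraries, which may be technical.

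D cyclins (CCND1 to CCND3) bind CDK4 and CDK6 and begin the phosphorylation of the retinoblastoma protein, and E cyclins (CCNE1, CCNE2) bind CDK2 and carry it further at the entry into S phase. Phosphorylated retinoblastoma protein releases the activator factors E2F1, E2F2 and E2F3, which switch on the genes of DNA synthesis and also CCNE1, CCNE2 and several E2F genes themselves. E2F7 and E2F8 are atypical repressors that are made later and shut the same genes off. CCND1 is among the most often amplified genes of breast cancer and is the member most directly driven by growth factor and adhesion signals.

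Levels are given as CPM, the counts of a gene relative to the library's total, scaled between the libraries of an experiment by TMM. LM2 libraries held 22147429 to 32147377 counts, 4T1 libraries 21896459 to 29370432 and LifeAct libraries 15581289 to 23678322. LM2 and 4T1 RNA was polyA selected and LifeAct RNA was depleted of ribosomal RNA, so levels are not compared across experiments. MRTFA, the gene of the construct, averaged 218 CPM in LM2 caMKL1, 162 in LM2 MKL1 and 10.8 in LM2 control cells. Mrtfa averaged 624 CPM in 4T1 caMKL1, 2145 in 4T1 MKL1 and 39.2 in 4T1 control cells. The construct sequences and the species of the MKL1 put into 4T1 are not given. How fully construct reads count under these gene names is therefore not known. Replicate 1 of LM2 caMKL1 and replicate 1 of LM2 MKL1 stood apart from the other replicates of their groups. They differed from them by a chi-square per gene of 36.2 to 52.2, against 3.11 in caMKL1 and 21.3 in MKL1 between replicates 2 and 3. Mitochondrial genes took 7.76% of counts in replicate 1 of LM2 caMKL1, against 13.4% and 13.6% in replicates 2 and 3. The share was 6.18% to 9.87% in LM2 MKL1 and 7.73% to 8.94% in LM2 control libraries, so caMKL1 replicates 2 and 3 lay above all others, and whether this plays a part in the results was not tested. The keratin genes KRT8 and KRT18 were detected in every LM2 and LifeAct group, whereas CDH1, which encodes E-cadherin, was nearly absent there (0.47 CPM or less) and averaged 670 CPM or more in every 4T1 group.

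Differences were tested across all genes of an experiment with edgeR's quasi-likelihood F test, and a gene is called where its Benjamini-Hochberg adjusted p is below 0.05. In LM2 caMKL1 against control, 2 members rose, 7 fell and 1 was not called, where 64.9% of all 18893 tested genes were called (31.9% higher and 33% lower). The median log2 ratio was -1.08 over the members and -0.05 over all tested genes. Without replicate 1 of LM2 caMKL1 and LM2 MKL1, 2 members rose and 8 fell. More genes were called in that fit as well, 6402 higher and 6654 lower, against 6030 and 6241 with all libraries. In LM2 MKL1 against control, 1 member rose and 9 were not called, where 12% of all genes were called (7.25% higher and 4.74% lower). In 4T1 caMKL1 against control, 2 members rose, 7 fell and 1 was not called, with 72% of 16297 genes called (36.2% higher and 35.8% lower). The median was -0.44 over the members and -0.02 over all genes. In 4T1 MKL1 against control, 1 rose, 5 fell and 4 were not called, with 34.3% of all genes called (19.3% higher and 15% lower). In LifeAct low against negative cells, 8 rose and 2 fell, where 49.6% of 21869 genes were called (26% higher and 23.6% lower). In LifeAct high against negative cells, 9 rose and 1 fell, where 71.1% were called (36% higher and 35.2% lower), and the median was 1.27 over the members and -0.03 over all genes. With so many genes called in the caMKL1 and LifeAct comparisons, the number of members called is read only against these shares. The size and direction of each member's difference carry the description below. Replicates spread more in LM2 (edgeR's common coefficient of variation 0.118) than in 4T1 (0.034) or LifeAct (0.044). Smaller ratios can therefore be called in 4T1 than in LM2, and numbers of calls are not compared between experiments. In each experiment the comparisons share their control or negative libraries.

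CCND1 fell in both lines that overexpressed caMKL1. By merged exon length, which includes stretches shared with other genes, it was the highest D cyclin per kb in every group except 4T1 caMKL1. It had 88.4, 94.4 and 84.3 CPM in LM2 caMKL1 cells, 393, 515 and 455 in LM2 MKL1 cells and 412, 414 and 401 in LM2 control cells. Every caMKL1 library lay below every library of the other 2 groups, while the MKL1 and control ranges overlapped. CCND1 was called in MKL1 cells without replicate 1 of both construct groups (log2 ratio 0.25, adjusted p = 0.0247). In caMKL1 cells the level was 21.8% of control (log2 ratio -2.20 ± 0.11 (SE), adjusted p = 4.13e-11, n = 3 each). In 4T1, Ccnd1 had 134, 129.8 and 139 CPM in caMKL1 cells, 767, 769.6 and 787 in MKL1 cells and 891, 879 and 883 in control cells. None of the 3 groups overlapped. The caMKL1 level was 15.2% of control (log2 ratio -2.72 ± 0.03, adjusted p = 9.71e-28), and MKL1 cells also fell below control, by 0.19 on the log2 scale (adjusted p = 4.32e-06). LifeAct cells showed the opposite order, with 302, 284 and 305 CPM in negative, 446, 445 and 445 in low and 638, 628 and 637 in high cells. The 3 groups did not overlap, and high cells stood 2.14-fold above negative cells (log2 ratio 1.10 ± 0.04, adjusted p = 1.78e-20).

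With caMKL1, CCND2 rose in both lines. It had 33.1, 28.4 and 37.5 CPM in LM2 caMKL1 cells, 16.1, 11.8 and 13.02 in LM2 MKL1 cells and 11.0004, 12.9 and 15.4 in LM2 control cells. The caMKL1 libraries lay above all others, 2.51-fold above control (log2 ratio 1.33 ± 0.15, adjusted p = 1.36e-06). In 4T1, Ccnd2 was an abundant D cyclin in every group, with 295, 303 and 294 CPM in caMKL1 cells, 266, 266 and 264 in MKL1 cells and 258, 242 and 252 in control cells. The groups did not overlap, but the steps were small: caMKL1 cells rose by 0.25 ± 0.03 (log2) and MKL1 cells by 0.08 ± 0.03 (adjusted p = 5.98e-08 and 0.034). On library totals in place of TMM the 2 log2 ratios were 0.07 and 0.02, and neither was called (adjusted p = 0.0503 and 0.726). The MKL1 call was also lost with no filter on low counts, in a fit of the 2 groups alone, and without any 1 MKL1 library, control replicate 2 or control replicate 3 (adjusted p = 0.0502 to 0.18). In the LifeAct series CCND2 did not follow CCND1, with 30.7, 30.3 and 31.9 CPM in negative, 25.6, 26.3 and 25.3 in low and 33.6, 36.7 and 37.4 in high cells. It fell in low cells (log2 ratio -0.27 ± 0.07, adjusted p = 0.00162) and rose in high cells (0.21 ± 0.07, adjusted p = 0.0062), both against negative.

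CCND3 was not called in LM2 cells of either construct. It had 25.1, 19.4 and 15.5 CPM in caMKL1 cells, 29.5, 19.9 and 23.6 in MKL1 cells and 22.1, 22.5 and 19.5 in control cells, with all ranges overlapping. The caMKL1 log2 ratio was -0.09 ± 0.17 (adjusted p = 0.646). Without replicate 1 of both construct groups it was -0.28 and was called (adjusted p = 0.0376), as it was on library totals (-0.49, adjusted p = 0.0401). In 4T1, Ccnd3 averaged 47.3 ± 1.92 CPM in caMKL1, 38.3 ± 1.77 in MKL1 and 43.1 ± 3.31 in control cells (SD, n = 3 each). The caMKL1 call was higher (log2 ratio 0.14 ± 0.06, adjusted p = 0.0297), with overlapping ranges. On library totals the ratio was -0.05 (adjusted p = 0.476), where the median of all genes was -0.21, against -0.02 with TMM. Without 4T1 caMKL1 replicate 2, control replicate 2 or control replicate 3 Ccnd3 was not called (adjusted p = 0.147, 0.0877 and 0.182), nor with no filter on low counts (0.107). The MKL1 call was lower (log2 ratio -0.17 ± 0.06, adjusted p = 0.0213), and it was lost without 4T1 MKL1 replicate 3 or control replicate 1 (adjusted p = 0.0845 and 0.146). In LifeAct cells CCND3 climbed with CCND1, with 62.9, 57.9 and 54.2 CPM in negative, 89.6, 91.6 and 91.5 in low and 118, 117 and 115 in high cells. No groups overlapped, and high cells stood 2.00-fold above negative cells (log2 ratio 1.00 ± 0.05, adjusted p = 2.9e-16).

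Of the E cyclins, CCNE2 carried the larger fall in LM2. It had 8.61, 12.04 and 9.09 CPM in caMKL1 cells, 40.2, 47.3 and 35.1 in MKL1 cells and 37.1, 39.9 and 30.0 in control cells. The caMKL1 libraries lay apart from all others, at 27.7% of control (log2 ratio -1.85 ± 0.16, adjusted p = 3.54e-08). CCNE1 was low in all LM2 groups, with 5.23, 5.27 and 5.36 CPM in caMKL1 cells, 9.79, 9.05 and 8.05 in MKL1 cells and 7.23, 7.52 and 6.49 in control cells. It fell in caMKL1 cells to 74.7% of control (log2 ratio -0.42 ± 0.15, adjusted p = 0.0193). That call was lost without LM2 caMKL1 replicate 2, control replicate 1 or control replicate 2 (adjusted p = 0.0521, 0.0555 and 0.0745) and with no filter on low counts (0.0527). In MKL1 cells the CCNE1 ranges lay above control without overlap, but the log2 ratio of 0.34 ± 0.14 was not called (adjusted p = 0.133).

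In 4T1 both E cyclins fell with caMKL1. Ccne2 had 22.6, 19.8 and 20.2 CPM in caMKL1 cells, 29.8, 24.6 and 25.3 in MKL1 cells and 29.7, 36.1 and 30.4 in control cells, which put caMKL1 cells at 64.8% of control (log2 ratio -0.63 ± 0.08, adjusted p = 2.18e-07). Ccne1 had 6.18, 6.31 and 7.71 CPM in caMKL1 cells, 8.66, 9.38 and 8.86 in MKL1 cells and 8.72, 9.25 and 9.11 in control cells. Its caMKL1 libraries lay below the others (log2 ratio -0.42 ± 0.10, adjusted p = 0.000611), while MKL1 and control overlapped (-0.01 ± 0.10, adjusted p = 0.957). Ccne2 was also called lower in MKL1 cells (log2 ratio -0.28 ± 0.08, adjusted p = 0.00782), although the ranges overlapped. The call was lost without 4T1 MKL1 replicate 2 or control replicate 2 (adjusted p = 0.0609 and 0.0948). In LifeAct cells CCNE1 had 3.38, 2.65 and 3.30 CPM in negative, 5.25, 6.25 and 6.86 in low and 12.5, 11.1 and 11.6 in high cells. CCNE2 had 3.32, 3.56 and 3.67 CPM in negative, 9.03, 7.79 and 8.51 in low and 11.6, 14.04 and 12.7 in high cells. Both rose without overlap between groups, 3.77-fold for CCNE1 and 3.61-fold for CCNE2 in high against negative cells (adjusted p = 3.29e-13 and 1.19e-13). The exons of human CCNE2 and INTS8 share 1629 bases on opposite strands, and those of the mouse pair 609. CCND1 and LTO1 likewise share 497 bases in human and 1100 in mouse, and E2f8 shares 610 with Gm2788. CCND2 shares 999 with AC008012.1 on its own strand. Counting used no strand setting, so reads in these stretches cannot be assigned to either gene.

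**Figure D1:**
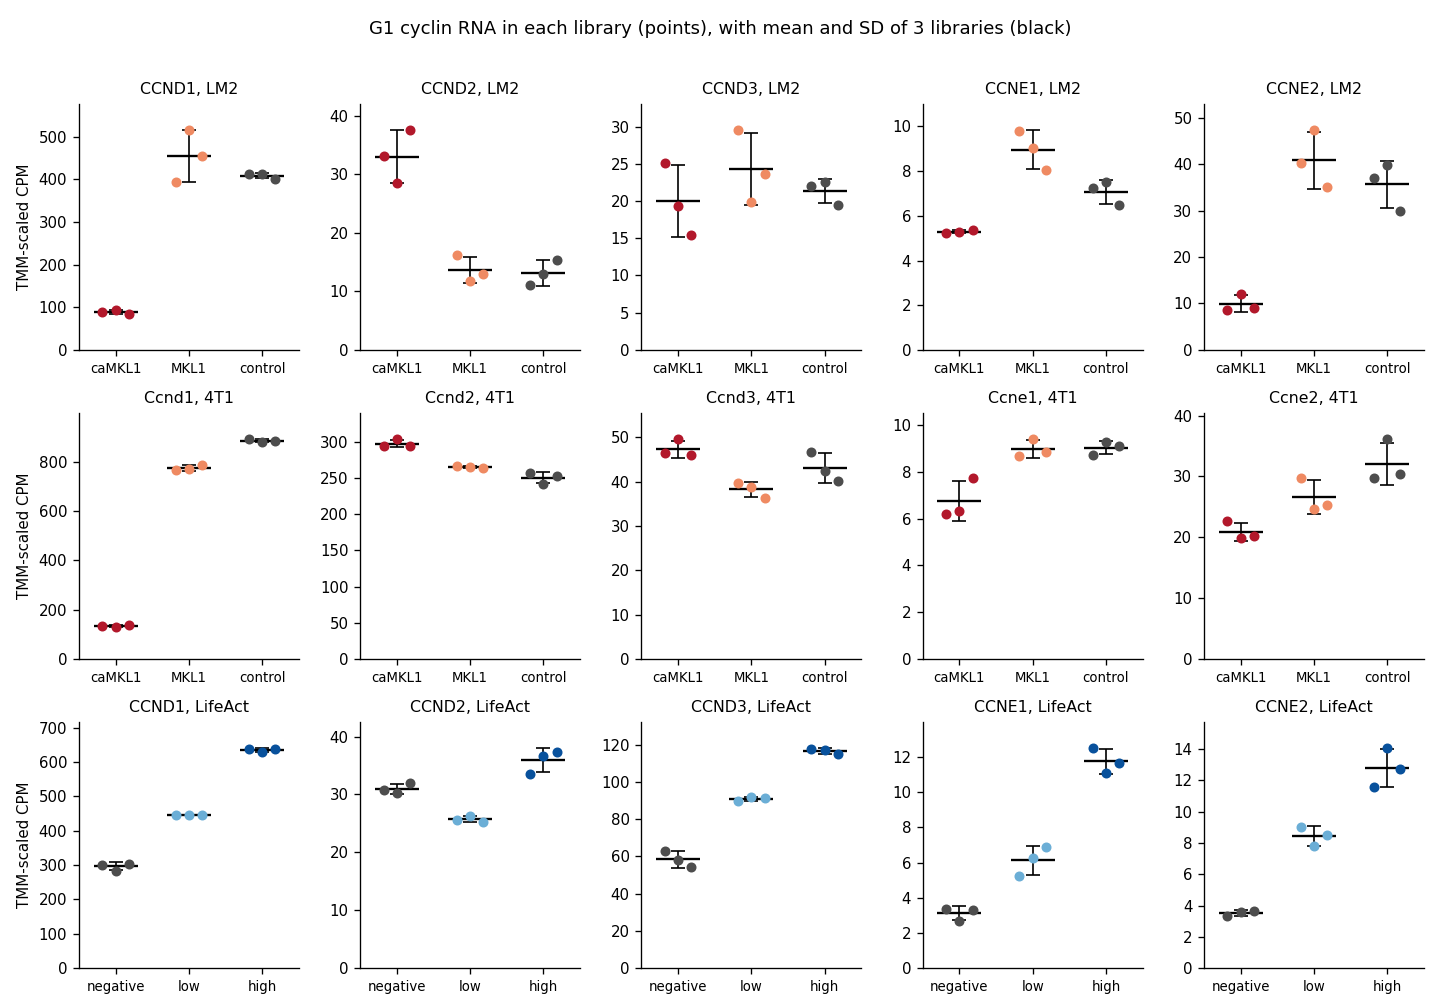
TMM-scaled CPM of the 5 G1 cyclins (columns) in each library of the LM2, 4T1 and LifeAct experiments (rows), with the group on the horizontal axis, a point per library, and the mean and SD of 3 libraries in black. CCND1 stands at 84.3 to 94.4 CPM in LM2 caMKL1 cells and at 401 to 414 in LM2 control cells, and it climbs over the 3 LifeAct groups.

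Among the activators, E2F1 fell in LM2 cells with caMKL1, to 33.9% of control. It had 9.42, 6.63 and 6.01 CPM in caMKL1 cells, 30.4, 21.2 and 19.7 in MKL1 cells and 24.5, 23.0 and 18.1 in control cells. The caMKL1 libraries were apart from the rest (log2 ratio -1.56 ± 0.20, adjusted p = 3.55e-06), and the MKL1 and control ranges overlapped. In 4T1, E2f1 had 33.9, 34.1 and 35.1 CPM in caMKL1 cells, 30.9, 30.0 and 30.2 in MKL1 cells and 35.5, 36.3 and 34.2 in control cells. The caMKL1 difference was not called (log2 ratio -0.04 ± 0.05, adjusted p = 0.44). On library totals the difference was -0.23 and was called (adjusted p = 0.000328). MKL1 cells were lower than control (-0.22 ± 0.05, adjusted p = 0.00141). In LifeAct cells E2F1 and E2F2 had the highest ratios of the 10 members in high against negative cells. E2F1 had 14.7, 14.2 and 12.6 CPM in negative, 49.1, 48.4 and 44.8 in low and 77.3, 66.3 and 71.4 in high cells. The groups did not overlap, and high cells stood 5.20-fold above negative (log2 ratio 2.38 ± 0.07, adjusted p = 2.8e-21).

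E2F2, the least abundant member per kb of exon in every group, had the lowest log2 ratio of the 10 genes in LM2 caMKL1 cells. It had 0.884, 0.611 and 0.596 CPM there, from 23, 13 and 12 counts, 6.01, 6.80 and 5.06 CPM in MKL1 cells and 7.18, 8.43 and 4.30 in control cells. That is 10.7% of control (log2 ratio -3.22 ± 0.29, adjusted p = 7.42e-08), and the small counts limit how well the caMKL1 level is known. In 4T1, E2f2 had 8.19, 8.74 and 7.63 CPM in caMKL1 cells, 13.01, 13.8 and 13.3 in MKL1 cells and 14.3, 14.997 and 14.4 in control cells. It fell to 56.2% of control in caMKL1 cells (log2 ratio -0.83 ± 0.08, adjusted p = 2.02e-09). In MKL1 cells the libraries lay below control without overlap, but the ratio of -0.13 ± 0.08 was not called (adjusted p = 0.215). In LifeAct cells E2F2 had 1.78, 1.94 and 1.83 CPM in negative, 10.2, 10.3 and 9.12 in low and 9.82, 9.01 and 9.66 in high cells. It was 5.31-fold higher in low and 5.14-fold higher in high than in negative cells (adjusted p = 3e-14 and 1.25e-14). The high and low ranges overlapped (log2 ratio -0.05 ± 0.10, adjusted p = 0.731).

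E2F3 had the log2 ratio closest to 0 among the activators in LM2 caMKL1 cells against control and in LifeAct low and high against negative cells. It had 50.0, 52.0 and 56.1 CPM in LM2 caMKL1 cells, 86.9, 97.7 and 88.2 in LM2 MKL1 cells and 90.7, 96.0 and 82.3 in LM2 control cells. It fell in caMKL1 cells to 58.8% of control (log2 ratio -0.77 ± 0.09, adjusted p = 2.45e-06). In 4T1, E2f3 averaged 44.3 ± 1.15 CPM in caMKL1, 56.2 ± 1.23 in MKL1 and 60.4 ± 1.15 in control cells (SD, n = 3 each). Its caMKL1 level was 73.3% of control (log2 ratio -0.45 ± 0.04, adjusted p = 1.55e-09). The MKL1 libraries lay below control without overlap, but the ratio of -0.10 ± 0.04 was not called (adjusted p = 0.0608). On library totals it was -0.17 and was called (adjusted p = 0.0026). In LifeAct cells E2F3 had 49.5, 53.8 and 50.0 CPM in negative, 64.5, 64.0 and 67.5 in low and 78.9, 79.6 and 79.1 in high cells, 1.55-fold higher in high than in negative (adjusted p = 1.06e-11).

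Promoter windows of 300 bases, from 250 bases before to 50 after a start site, were read from RefSeq (GRCh38.p14) for 6 of the 10 human genes, 9 windows in all. The E2F1, E2F2 and E2F3 windows are shown because they hold sites of the kind that E2F factors bind, and the E2F7 and CCNE1 windows for contrast. Capitals mark matches to TTTCGCG or TTTGGCG or TTTCCCG or TTTGCCG on either strand.

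E2F1 (chr20:33686336-33686635, minus strand): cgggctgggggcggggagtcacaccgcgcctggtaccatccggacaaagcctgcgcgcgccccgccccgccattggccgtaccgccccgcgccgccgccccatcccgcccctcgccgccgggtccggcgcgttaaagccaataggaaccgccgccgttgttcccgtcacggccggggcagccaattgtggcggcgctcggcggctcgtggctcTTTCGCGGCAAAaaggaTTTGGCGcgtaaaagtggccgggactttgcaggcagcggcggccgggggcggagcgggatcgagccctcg
E2F2 (chr1:23531184-23531483, minus strand): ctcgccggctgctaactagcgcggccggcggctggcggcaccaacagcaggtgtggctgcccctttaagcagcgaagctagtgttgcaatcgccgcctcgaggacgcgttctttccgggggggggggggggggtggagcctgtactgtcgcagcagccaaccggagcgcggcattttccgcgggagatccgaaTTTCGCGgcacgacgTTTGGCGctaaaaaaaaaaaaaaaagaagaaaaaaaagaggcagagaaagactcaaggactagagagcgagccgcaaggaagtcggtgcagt
E2F3 (chr6:20401629-20401928, plus strand): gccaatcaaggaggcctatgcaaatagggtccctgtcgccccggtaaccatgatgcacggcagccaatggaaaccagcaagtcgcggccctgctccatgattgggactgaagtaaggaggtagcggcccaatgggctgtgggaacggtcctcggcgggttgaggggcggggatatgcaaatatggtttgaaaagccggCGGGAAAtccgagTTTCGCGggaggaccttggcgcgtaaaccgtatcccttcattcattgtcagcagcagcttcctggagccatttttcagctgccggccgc
E2F7 (chr12:77065520-77065819, minus strand): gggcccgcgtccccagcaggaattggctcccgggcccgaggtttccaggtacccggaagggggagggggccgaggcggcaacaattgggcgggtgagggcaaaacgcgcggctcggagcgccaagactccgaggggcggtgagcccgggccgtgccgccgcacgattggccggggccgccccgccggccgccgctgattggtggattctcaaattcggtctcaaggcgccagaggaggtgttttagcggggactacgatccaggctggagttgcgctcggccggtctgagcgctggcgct
CCNE1 (chr19:29811741-29812040, plus strand): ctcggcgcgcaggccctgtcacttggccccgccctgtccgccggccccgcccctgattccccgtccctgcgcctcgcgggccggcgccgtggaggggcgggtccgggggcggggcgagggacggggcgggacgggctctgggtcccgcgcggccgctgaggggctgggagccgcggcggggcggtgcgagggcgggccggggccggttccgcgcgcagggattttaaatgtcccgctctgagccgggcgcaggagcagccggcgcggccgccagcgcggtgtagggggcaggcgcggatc

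E2F1 held 3 matches, which start 37, 32 and 20 bases before the start site, and the match at 32 is on the opposite strand and overlaps the one at 37. E2F2 held 2 matches, 57 and 42 bases before its start site, and the E2F3 window shown held 2, at 52 (opposite strand) and 39. The other E2F3 window, the E2F7 and CCNE1 windows and 3 CCND3 windows held none. Of all 35116 promoter windows in the table, 8.67% held at least 1 match and 0.681% held 2 or more. The CArG box, the motif bound by serum response factor, was in 1.29% of all windows and in none of the 9. A match is a run of letters and does not show binding, and no match says only that these letters are not in the window. CCND1, CCND2, CCNE2 and E2F8 had no window in the table.

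E2F7 and E2F8, the paired repressors, went opposite ways in LM2 caMKL1 cells. E2F7 had 99.1, 95.6 and 97.8 CPM in caMKL1 cells, 300.1, 331 and 353 in MKL1 cells and 252, 259 and 258 in control cells. It fell to 38.1% of control with caMKL1 (log2 ratio -1.39 ± 0.09, adjusted p = 1.05e-09). E2F8 had 73.4, 91.9 and 95.2 CPM in caMKL1 cells, 51.0, 58.4 and 45.3 in MKL1 cells and 43.0, 46.5 and 34.4 in control cells. Its caMKL1 libraries lay above all others, 2.10-fold above control (log2 ratio 1.07 ± 0.13, adjusted p = 2.84e-06). E2F8 and CCND2 were the 2 members that rose in this comparison. E2F7 was also the member called in LM2 MKL1 against control, where it rose 1.28-fold (log2 ratio 0.36 ± 0.09, adjusted p = 0.0121). That call was lost without any 1 of the 3 control libraries (adjusted p = 0.0634, 0.0535 and 0.0502 without replicates 1, 2 and 3) and on library totals (0.0588). E2F8 was not called there (log2 ratio 0.32 ± 0.13, adjusted p = 0.13), and it was with no filter on low counts (adjusted p = 0.0199).

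In 4T1 the pair moved the same way with caMKL1. E2f8 had 81.7, 79.9 and 76.7 CPM in caMKL1 cells, 118, 117 and 135 in MKL1 cells and 113, 116 and 119 in control cells. The caMKL1 libraries lay below the others at 68.5% of control (log2 ratio -0.55 ± 0.05, adjusted p = 2.02e-10), and the MKL1 and control ranges overlapped. E2f7 had 46.1, 43.6 and 42.1 CPM in caMKL1 cells, 41.1, 41.1 and 44.4 in MKL1 cells and 53.2, 50.7 and 49.8 in control cells. It fell by 0.22 ± 0.05 (log2) with caMKL1 and by 0.28 ± 0.05 with MKL1 (adjusted p = 0.000307 and 8.77e-05), and the ranges of the 2 constructs overlapped. In LifeAct cells E2F7 was the member that fell in both low and high cells, with 499.6, 523 and 528 CPM in negative, 302, 302 and 302 in low and 352, 341 and 349 in high cells. It fell by 0.78 ± 0.04 (log2) in low and by 0.57 ± 0.04 in high cells, both against negative (adjusted p = 2.64e-16 and 4.37e-14). E2F8 had 8.36, 6.73 and 7.09 CPM in negative, 18.4, 19.3 and 17.9 in low and 19.6, 19.7 and 21.2 in high cells. It rose 2.72-fold in high against negative cells (log2 ratio 1.45 ± 0.10, adjusted p = 9.84e-14).

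**Figure D2:**
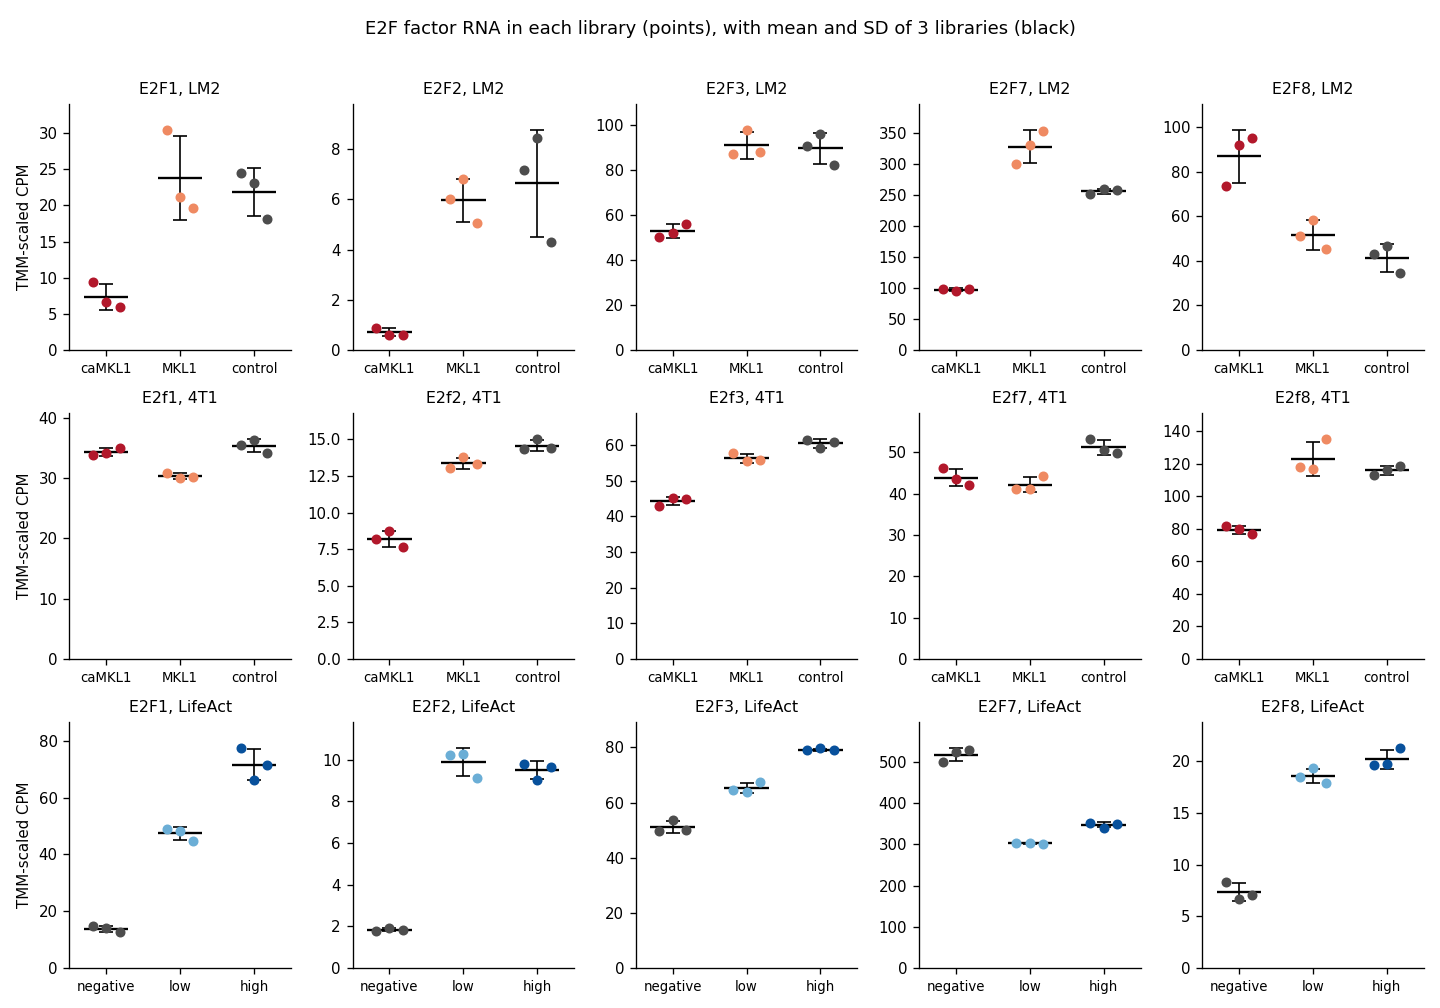
TMM-scaled CPM of the 5 E2F factors (columns) in each library of the LM2, 4T1 and LifeAct experiments (rows), with the group on the horizontal axis, a point per library, and the mean and SD of 3 libraries in black. In LM2, E2F8 is the factor whose caMKL1 libraries lie above control (73.4 to 95.2 against 34.4 to 46.5 CPM), and in LifeAct E2F7 is the factor that is highest in negative cells.

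The constructs also differed from each other. In LM2 caMKL1 against MKL1, 2 members rose and 7 fell, where 64.5% of all genes were called (32.6% higher and 31.9% lower), and CCND3 was not called (log2 ratio -0.28 ± 0.17, adjusted p = 0.149). It was called in 6 of 14 alternatives to that fit, among them the fit without replicate 1 of both groups (-0.32, adjusted p = 0.0341). E2F7 stood at 29.7% of the MKL1 level (log2 ratio -1.75 ± 0.09, adjusted p = 9.51e-11), and CCNE1 at 59.1% (-0.76 ± 0.14, adjusted p = 0.000244). In 4T1 caMKL1 against MKL1, 3 members rose and 6 fell, where 66.6% were called (33.8% higher and 32.8% lower). Ccnd3 and E2f1 were higher with caMKL1 than with MKL1 (log2 ratios 0.31 ± 0.06 and 0.18 ± 0.05, adjusted p = 4.3e-05 and 0.00431), and on library totals the E2f1 call was lost (0.06, adjusted p = 0.312), as was that of Ccnd2 (0.05, adjusted p = 0.142). In LifeAct high against low cells, 8 members rose and none fell, where 50.3% of all genes were called (26.6% higher and 23.7% lower). CCNE1 showed the largest ratio of the 10 (1.91-fold, adjusted p = 8.37e-08), and E2F7 rose 1.15-fold (adjusted p = 4.43e-05). E2F2 and E2F8 were not called (adjusted p = 0.731 and 0.215).

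**Figure D3:**
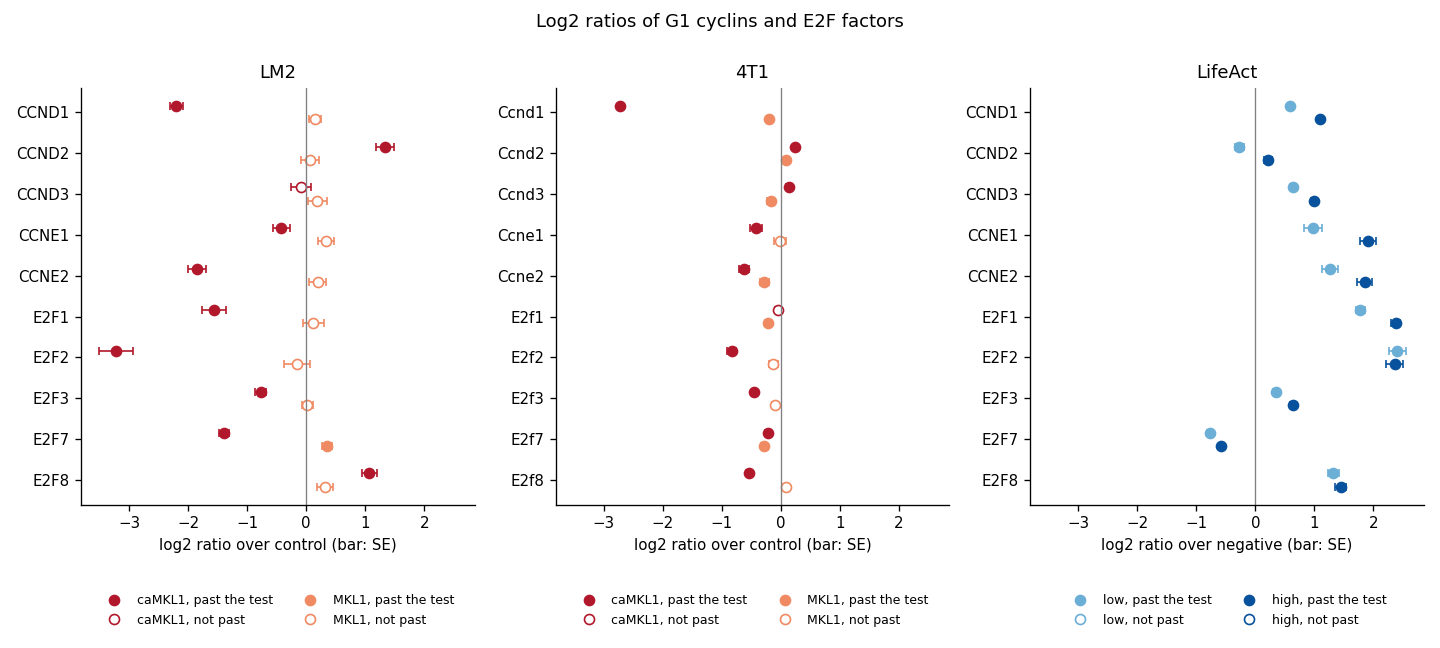
Log2 ratio of each member over control (LM2, 4T1) or over negative cells (LifeAct), with SE bars, filled where the adjusted p was below 0.05 and open otherwise. CCND1 lies far left with caMKL1 in both lines (-2.72 in 4T1 and -2.20 in LM2), most other caMKL1 ratios are smaller in 4T1 than in LM2, and all members except E2F7 lie right of 0 in LifeAct high cells.

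Whether the lines differed was tested as an interaction over 13113 genes matched by symbol in the 18 LM2 and 4T1 libraries. The difference is the log2 ratio in 4T1 minus that in LM2, and it departs slightly from a plain subtraction because all 18 libraries were scaled together. For caMKL1, 4 members had a higher and 3 a lower ratio in 4T1, where 60.3% of matched genes were called (30.7% higher and 29.6% lower). E2F2 had the largest positive difference (2.26 ± 0.31, adjusted p = 1.44e-06), followed by E2F1 (1.39 ± 0.20, adjusted p = 3.99e-06), which was not called in 4T1 and fell in LM2. E2F8 had the largest negative difference (-1.75 ± 0.15, adjusted p = 2.61e-09), falling in 4T1 and rising in LM2. The difference for CCND3, CCNE1 and E2F3 was not called (0.10 ± 0.18, -0.13 ± 0.16 and 0.19 ± 0.10, adjusted p = 0.684, 0.525 and 0.114). That of E2F3 was called in 4 of 20 alternatives, with library totals (0.54, adjusted p = 3.23e-05) or without LM2 caMKL1 replicate 3, LM2 control replicate 3 or 4T1 caMKL1 replicate 1. That of CCND3 was called without replicate 1 of both LM2 construct groups (0.29, adjusted p = 0.0483). For MKL1, 2 members differed, where 19.9% of matched genes were called (9.32% higher and 10.6% lower), both with a lower ratio in 4T1. They were E2F7 (-0.66 ± 0.09, adjusted p = 4.97e-05) and CCND1 (-0.37 ± 0.11, adjusted p = 0.0211). The CCND1 call was lost when any 1 of 5 libraries was left out, with adjusted p = 0.0608 without LM2 MKL1 replicate 2, 0.06 without LM2 control replicate 3, 0.0599 without 4T1 MKL1 replicate 1, 0.0511 without 4T1 control replicate 1 and 0.0517 without 4T1 control replicate 2. CCNE2 was called, with a lower ratio in 4T1, in 6 of 20 alternatives, among them the fits without LM2 MKL1 replicate 1, LM2 MKL1 replicate 3 or LM2 control replicate 2 (adjusted p = 0.0479, 0.0281 and 0.0463).

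Per kb of merged exon, levels can be set between genes only roughly. The merged length includes stretches shared with other genes, where reads cannot be assigned, such as 1629 of 4397 bases in human CCNE2. In LM2 control cells the order was CCND1 (85.9 CPM per kb), E2F7 (40.7), E2F3 (17.3), E2F8 (9.98), E2F1 (8.13), CCNE2 (8.11), CCND3 (3.71), CCNE1 (2.88), CCND2 (1.64) and E2F2 (1.22). Neighbours overlapped between E2F8 and E2F1, E2F1 and CCNE2, and CCND2 and E2F2. In LM2 MKL1 cells the same 4 genes led in the same order. In LM2 caMKL1 cells E2F8 (21.0), CCND1 (18.7) and E2F7 (15.5) led, and the ranges of E2F8 and CCND1 overlapped. In 4T1 control cells Ccnd1 (188), Ccnd2 (26.6) and E2f8 (21.3) led, and in 4T1 caMKL1 cells Ccnd2 (31.6) stood above Ccnd1 (28.5) without overlap. Shared stretches take 1100 of 4709 bases in Ccnd1, and 372 and 368 of 9409 in Ccnd2. The merged length therefore does not settle the order of these 2 genes in 4T1 caMKL1 cells. In the LifeAct groups E2F7 led in negative cells (82.2) above CCND1 (62.3), whereas CCND1 led in low (93.6) and high cells (133), with E2F7 next (48.0 and 55.2).

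The summed D-cyclin level in CPM per kb was 26.3 ± 1.07 in LM2 caMKL1, 101 ± 11.7 in LM2 MKL1 and 91.2 ± 1.45 in LM2 control cells (SD, n = 3 each). CCND1 made up 71.1% ± 2.79 of it in caMKL1 cells, 94.0% ± 1.83 in MKL1 cells and 94.1% ± 0.16 in control cells. In 4T1 the sum was 65.5 ± 0.58 in caMKL1, 197 ± 1.94 in MKL1 and 219 ± 2.35 in control cells. Ccnd1 made up 43.5% ± 1.32 of it in caMKL1, 83.5% ± 0.32 in MKL1 and 85.6% ± 0.34 in control cells, and Ccnd2 made up 48.3% ± 0.97 in caMKL1 cells and 12.1% ± 0.28 in control cells. In LifeAct cells the sum was 76.3 ± 2.54 in negative, 113 ± 0.12 in low and 158 ± 0.99 in high cells, while the CCND1 share was 81.6% ± 0.90 in negative, 83.1% ± 0.18 in low and 84.4% ± 0.20 in high cells. E2F8 made up 57.4% ± 3.79 of the summed E2F7 and E2F8 level in LM2 caMKL1, 19.4% ± 2.62 in LM2 MKL1 and 19.7% ± 2.44 in LM2 control cells. In 4T1 it made up 75.0% ± 0.35 in caMKL1, 82.8% ± 0.54 in MKL1 and 78.9% ± 0.99 in control cells. These shares were not tested, and they rest on merged exon lengths that include stretches shared with other genes.

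**Figure D4:**
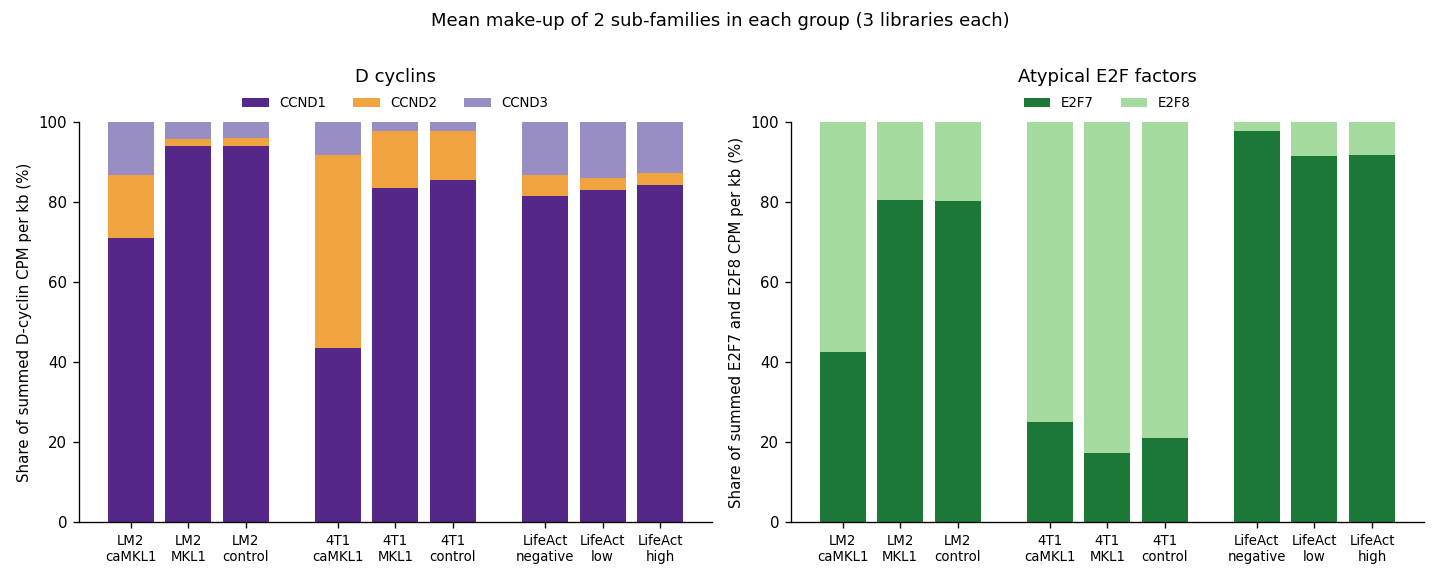
Mean share of each D cyclin in the summed D-cyclin CPM per kb (left) and of E2F7 and E2F8 in their sum (right), in each group of 3 libraries, with mouse genes under their human symbols. CCND2 takes 48.3% in 4T1 caMKL1 cells, E2F8 takes 57.4% in LM2 caMKL1 cells, and E2F7 takes nearly all of the pair in LifeAct negative cells, where E2F8 has 2.13%. Merged exon lengths include stretches shared with other genes.

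Kinases and inhibitors act around the cyclins. Of 11 such genes 9 were tested in LM2 and 8 in 4T1, and CDKN2A and CDKN2B, which encode inhibitors of CDK4 and CDK6, had no counts in any library of either species. In LM2 caMKL1 against control, 2 rose and 4 fell. The CDK2 inhibitor CDKN1A averaged 479 ± 78.5 CPM in caMKL1, against 15.3 ± 1.63 in control cells (log2 ratio 4.97 ± 0.19, adjusted p = 4.19e-12), and the related CDKN1B 369 ± 42.0, against 82.6 ± 4.04 (2.16 ± 0.10, adjusted p = 2.64e-11). CDK4, the partner of the D cyclins, and the activating phosphatase CDC25A fell (log2 ratios -2.02 and -0.96, adjusted p = 3.13e-06 and 2.61e-05). In 4T1 caMKL1 against control, 2 rose and 6 fell. Cdkn1b rose there too (0.81 ± 0.04, adjusted p = 8.63e-16), but Cdkn1a averaged 4.68 ± 0.49 CPM in caMKL1 and 18.8 ± 0.06 in control cells (-2.01 ± 0.09, adjusted p = 1.02e-15). Cdc25a and Cdk2 fell (-0.90 and -0.74, adjusted p = 6.7e-14 and 6.35e-13). In LM2 MKL1 against control 2 rose and none fell, namely CDKN1A (0.60, adjusted p = 0.0373) and CDK2 (0.32, adjusted p = 0.042), and on library totals neither was called (adjusted p = 0.106 and 0.164). Without replicate 1 of both construct groups 3 rose and 2 fell, with CDK6 also called higher (0.26, adjusted p = 0.0174) and the inhibitors CDKN2C and CDKN2D lower (-0.45 and -0.40, adjusted p = 0.00207 and 0.041). In 4T1 MKL1 against control 3 rose and 5 fell, with Cdkn1a at -0.84, and on library totals 1 rose and 5 fell. In LifeAct high against negative cells 6 rose and 2 fell, as in low against negative cells, with CDC25A at 2.81 ± 0.08 and the inhibitor CDKN1C at -2.04 ± 0.10 (adjusted p = 1.1e-22 and 7.15e-17).

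Of 14 pocket proteins, DP partners and other E2F genes, 1 rose and 11 fell in LM2 caMKL1 against control (median log2 ratio -0.76, against -0.05 over all genes). Those with the smallest p were RBL1, the pocket protein p107 (-2.10 ± 0.10), MYBL2, a transcription factor gene that E2F factors drive (-2.26 ± 0.15), the retinoblastoma-binding protein RBBP4 (-1.18 ± 0.09) and TFDP1, the dimer partner of the E2F factors (-1.38 ± 0.11), with adjusted p from 6.03e-11 to 3.06e-08. The gene that rose was TFDP2, another dimer partner (0.46), and on library totals it was not called (0.04, adjusted p = 0.689). In LM2 MKL1 against control TFDP2 alone was called, and it fell (-0.42). On library totals RB1, which encodes the retinoblastoma protein, was also called lower (-0.28, adjusted p = 0.0484). In 4T1 caMKL1 against control 8 rose and 5 fell (median 0.16, against -0.02). E2f5, which pairs with pocket proteins as a repressor, averaged 101 ± 3.47 CPM in caMKL1 and 22.4 ± 0.75 in control cells (2.18 ± 0.05, adjusted p = 3.79e-22), and Tfdp2 also rose (0.79), while Rbl1 and Rbbp4 fell (-0.72 and -0.45). On library totals 3 of the 14 rose and 6 fell, with a median of -0.03, where the median of all genes also moved down, to -0.21. In 4T1 MKL1 against control 1 rose and 6 fell, and on library totals 1 rose and 8 fell. In LifeAct high against negative cells 11 rose and 3 fell, among them MYBL2 (2.09), TFDP1 (1.05) and LIN54 (1.22) higher and RBL2, the pocket protein p130, lower (-1.14), and in low against negative cells 10 rose and 3 fell. Of 10 genes of cyclin turnover, 4 rose and 4 fell in LM2 caMKL1 against control. CUL1 and SKP2, subunits of the ubiquitin ligase that degrades several cyclins and inhibitors, rose (1.96 and 0.67), while cyclin F (CCNF) and the CDK-binding protein CKS1B fell (-2.34 and -1.37). On library totals 2 of the 10 rose and 6 fell. In LM2 MKL1 against control CUL1 alone was called (0.37), and without replicate 1 of both construct groups CCNF was also called higher (0.31, adjusted p = 0.0361). In 4T1 caMKL1 against control, 5 of 9 rose and 2 fell, with Gsk3b (0.56), Cks1b (0.27) and Cul1 (0.20) higher and Ccnf lower (-0.43). On library totals Cul1 was not called there (0.01, adjusted p = 0.696), and 3 rose and 4 fell. In 4T1 MKL1 against control 1 rose and 1 fell, and on library totals 1 rose and 3 fell. In LifeAct high against negative cells, 6 of 10 rose and 1 fell, with CKS1B (1.08), CCNF (1.02), AMBRA1 (0.40) and SKP1 (0.31) having the smallest p, and in low against negative cells 3 rose and 1 fell. On library totals 5 rose and 1 fell in high cells, and 5 rose and none fell in low cells.

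Of 22 S-phase genes that E2F factors are known to drive, 20 fell, 1 rose and 1 was not called in LM2 caMKL1 against control (median log2 ratio -1.91, against -0.05 over all genes). Cyclin A (CCNA2) fell by 2.39 ± 0.09 and the ribonucleotide reductase genes RRM1 and RRM2 by 1.95 ± 0.09 and 2.64 ± 0.13, with ORC1 of the replication origin complex at -2.44 ± 0.13. The kinase gene CHEK1 rose (0.59 ± 0.09, adjusted p = 1.52e-05), and TK1 was not called (-0.07 ± 0.22, adjusted p = 0.8). Without replicate 1 of both construct groups TK1 was called lower (-0.32, adjusted p = 0.0176), so that 21 fell and 1 rose. All 22 fell in 4T1 caMKL1 against control (median -0.80) and all 22 in 4T1 MKL1 against control (median -0.32), where Dnmt1, the maintenance DNA methyltransferase, averaged 190 ± 1.65 CPM in caMKL1, 394 ± 8.87 in MKL1 and 519 ± 12.8 in control cells. Uhrf1, Rrm2 and Mcm5 were the next by p in both (-1.49, -1.47 and -1.15 with caMKL1, and -0.44, -0.45 and -0.42 with MKL1). In LM2 MKL1 against control 4 rose and 18 were not called, the 4 being RRM2, PCNA, CHEK1 and CCNA2 (0.53, 0.39, 0.29 and 0.28), and on library totals only RRM2 was. In LifeAct cells all 22 rose in low and in high against negative cells (medians 1.23 and 1.41), with CDC6 at 21.5 ± 1.69 CPM in negative, 75.0 ± 1.77 in low and 139 ± 0.66 in high cells.

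**Figure D5:**
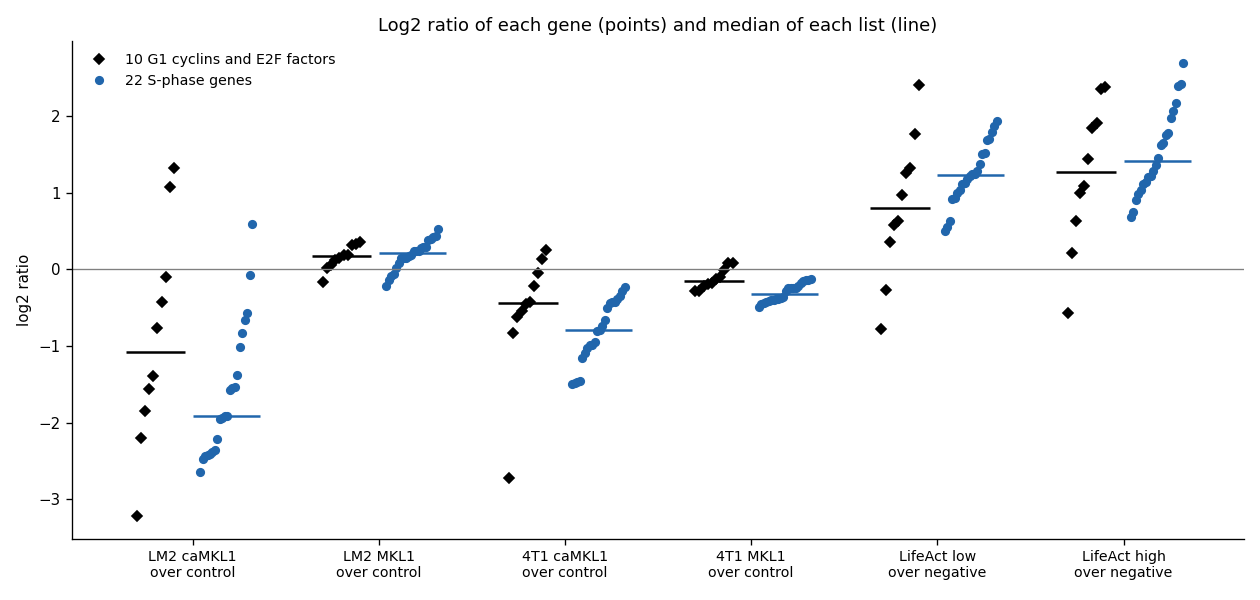
Log2 ratio of each of the 10 members (black diamonds) and of each of 22 S-phase genes (blue circles) in the 6 comparisons with control or negative cells, with the median of each list as a line. The S-phase medians lie below 0 with caMKL1 in both lines (-0.80 in 4T1 and -1.91 in LM2) and above 0 in both LifeAct comparisons (1.23 and 1.41), and members of both signs appear in LM2 caMKL1 cells.

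Markers of other cell types moved with some groups, and their part in the results was not tested. In LifeAct cells the summed level of the 3 endothelial markers was 93.3 to 96.2 CPM in negative, 33.0 to 34.3 in low and 11.8 to 13.05 in high cells. Nearly all of it was PECAM1 in negative cells (92.5 CPM), while CDH5 was at 0.32 CPM there. Of the 2 that were tested, PECAM1 fell and KDR rose in low and in high against negative cells, and KDR averaged 2.38 CPM in negative, 3.43 in low and 4.94 in high cells. The 4 leukocyte markers summed to 6.15 to 9.23 CPM in negative, 2.74 to 3.89 in low and 2.35 to 3.31 in high cells, with CD3E at 0.04 CPM or less on average, and the 4 fibroblast markers summed to 34.8 to 38.1 CPM in negative, 27.5 to 29.5 in low and 23.4 to 25.8 in high cells. Of the 3 fibroblast markers tested, 1 rose, 1 fell and 1 was not called in high against negative cells. In low against negative cells 1 of them fell and 2 were not called. In 4T1 the leukocyte markers summed to 58.5 to 66.3 CPM in caMKL1, 25.4 to 28.6 in MKL1 and 12.9 to 13.5 in control cells, and Cd68 made up 60.7 CPM of it in caMKL1 cells while Cd3e was at 0 in all 3 groups. Cd14 went the other way, with 2.71 CPM in caMKL1 and 6.95 in control cells, so that of the 2 tested markers 1 rose and 1 fell. In LM2 the endothelial markers summed to 2.07 to 2.85 CPM in caMKL1, 4.59 to 7.02 in MKL1 and 6.25 to 8.60 in control cells. The leukocyte markers there summed to 1.46 to 3.50 CPM in caMKL1, 0.39 to 1.08 in MKL1 and 0.41 to 0.87 in control cells, and CD14, the 1 that was tested, rose in caMKL1 against control (log2 ratio 2.24). The fibroblast markers summed to 7.11 to 7.71 CPM in caMKL1, 7.75 to 10.2 in MKL1 and 11.2 to 14.2 in control cells, and 2 of the 3 tested fell in caMKL1 against control. The mesenchymal marker VIM stood at 5539 to 6696 CPM in LM2 caMKL1, 2312 to 2704 in LM2 MKL1 and 1578 to 1618 in LM2 control cells. The order was another in 4T1, with 1887 to 1913 CPM in caMKL1, 2244 to 2263 in MKL1 and 1498 to 1518 in control cells. LifeAct cells had 1610.5 to 1762 CPM in negative, 1298 to 1315 in low and 1463 to 1483 in high cells. The epithelial markers summed to 1670 to 2051 CPM in LM2 caMKL1, 591 to 751 in LM2 MKL1 and 401 to 418 in LM2 control cells, and to 5482 to 5761 in 4T1 caMKL1, 3890 to 3960 in 4T1 MKL1 and 2608 to 2701 in 4T1 control cells, where Epcam went against the sum (71.7 CPM in caMKL1 and 217 in control cells). In bulk RNA, fewer cells of a kind and less RNA per cell cannot be told apart.

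The genes whose pattern over the 9 libraries of an experiment was most like that of E2F1 and CCND1 were found by the root mean square difference of centred log2 CPM, over all genes of at least 5 CPM on average. In LM2 the 4 nearest to E2F1 were CSK, PHF19, PGAM5 and DTYMK (0.093 to 0.105), and the 4 nearest to CCND1 included PLK4, ESCO2 and CEP55 (0.083 to 0.091). In 4T1 those nearest to E2f1 were Rack1, Sting1, Rpl7 and Cct7 (0.027 to 0.034), and those nearest to Ccnd1 were Padi3, Etv1, Hmga1 and Ccdc114 (0.072 to 0.111). The group means of E2f1 ran only from 30.4 to 35.4 CPM in 4T1, so genes that varied little lie near it by this measure. In LifeAct cells UHRF1, RRM2, MCM4 and XRCC2 were nearest to E2F1 (0.098 to 0.111), and NEDD4L, EIF2S1, GTPBP4 and ETF1 to CCND1 (0.032 to 0.039). By the same measure the closest members were CCNE1 and E2F3 in LM2 (0.179), E2f1 and E2f7 in 4T1 (0.096) and CCND1 and CCND3 in LifeAct cells (0.087). These are descriptions over 9 libraries in 3 groups each.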

How the data were processed

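Libraries were read as pairs of 150 bp, per the labels' protocols. The authors deposited raw counts of read pairs per gene name, made per the file headers with featureCounts 2.0.1 on STAR alignments. Exons were summed by gene name against Ensembl 103 (human) or 102 (mouse), with no strand option. The deposited length column, the merged exon length per gene, was used as another value only to set levels per kb. DESeq2 and the builds hg38 and mm10 also stand in the submitters' processing notes. Each count column was assigned by its header name, and 0 columns had no sample.

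Counts were filtered with filterByExpr (minimum count 10, by group), scaled by TMM within an experiment and tested in R 4.3.3 with edgeR 4.0.16, with a mean per group over 9 libraries, at an adjusted p of 0.05. Log2 ratios use a prior count of 0.125, and their SE is the size of the ratio divided by the square root of F. The fits were tested on simulated counts, in which far fewer genes were changed than were called in the data. They therefore cannot check the scaling where most genes are called. For LM2 caMKL1 against control, 40.3% of 1.5-fold, 68.7% of 2-fold and 92.4% of 4-fold changes were recovered. For 4T1 caMKL1 these shares were 61.2%, 85.1% and 100%, and for LifeAct high against negative 50.7%, 77.6% and 98.5%. Alternatives were DESeq2 1.42.0, limma voom (limma 3.58.1), edgeR with DESeq2 size factors, library totals, no filter and a replicate block. Further alternatives were only the groups compared, each library left out in turn and LM2 without the replicate 1 libraries of both constructs. Genes outside the 10 members were named by a rule: up to 4 of each list with the smallest p in a comparison with control or negative cells, and genes from the 4 most like E2F1 and CCND1. CHEK1, TK1 and TFDP2 in LM2 caMKL1 cells, the exceptions in their lists, were named after their values were seen, and so were the marker genes. CDKN2D in LM2 MKL1 cells was also named outside the rule, for its call without replicate 1 of both construct groups. The members and all lists were chosen with earlier results of these data known. Correlations between the deviations of same-numbered replicates did not pass a set cutoff in all 3 pairs of any comparison, so numbers were not taken as pairs. LM2 caMKL1 against MKL1 came closest (0.30, 0.19 and 0.06), so some pairing there remains possible. The LifeAct pairs lay near 0 (-0.03 to 0.002).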

Additional observations from a re-analysis of the deposited data

Results flagged for a closer look

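In 9 cases a member's response differed between the 2 lines by the interaction test (log2 ratio in 4T1 minus that in LM2, edgeR's quasi-likelihood test, adjusted over 13113 genes). For caMKL1 7 of 10 members were called, where 60.3% of all matched genes were, and for MKL1 2 of 10, where 19.9% were. Both counts lie near these shares and are not particular to the members. For caMKL1 the differences were -0.65 for CCND1, -1.21 for CCND2 and -1.75 for E2F8, all lower in 4T1, and 1.10 for CCNE2, 1.39 for E2F1, 2.26 for E2F2 and 1.04 for E2F7, all higher in 4T1. CCND1 fell in both lines and CCND2 rose in both, so these 2 differed in size, whereas E2F8 differed in sign. For MKL1 the differences were -0.37 for CCND1 and -0.66 for E2F7. The CCND1 difference was called in 15 of 20 alternatives and the E2F7 difference in all 20. E2F7 fell in 4T1 MKL1 cells and rose in LM2 MKL1 cells, although its call in LM2 was lost without any 1 control library. Mrtfa averaged 624 CPM in 4T1 caMKL1 and 2145 CPM in 4T1 MKL1 cells, and MRTFA averaged 218 CPM in LM2 caMKL1 and 162 CPM in LM2 MKL1 cells. How fully construct reads count under these gene names is not known, and the levels are not compared between the lines. The part of construct level in these differences was not tested.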

How the results depend on the processing

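Over the members' values under all alternatives, 1542 of 1600 kept their side of the threshold, 32 lost a call and kept their sign, and 25 gained one. The sign changed in 30. In 29 of these neither value was called, and no log2 ratio was beyond 0.21 in either direction. The other was Ccnd3 in 4T1 caMKL1 against control, a call with a log2 ratio of -0.0459 on library totals, not called. The count of members called in LM2 MKL1 against control, 1, was 0 on library totals, 2 with no filter on low counts, 2 without the replicate 1 libraries of both LM2 constructs, and 0 to 1 with a library left out, while the genes called ran from 1106 to 2450. The number of genes called was lowest without a control library, with 1266, 1243 and 1106 genes without replicates 1, 2 and 3, against 2265. With a replicate block it was 3258. The count for the MKL1 difference between lines, 2, was 5 with a replicate block, and 1 to 3 with a library left out. Members called in the other 9 tests stayed within 1.5 times their count under every alternative run. In the 3 LifeAct comparisons no member changed its side of the threshold. On library totals in place of TMM, the median of all genes was -0.46 in LM2 caMKL1 against control, -0.38 in LM2 caMKL1 against MKL1, -0.21 in 4T1 caMKL1 against control, -0.13 in 4T1 caMKL1 against MKL1, -0.11 in LifeAct high against low and 0.37 for the caMKL1 difference between lines. Genes called higher and lower were then 4137 and 9271 in LM2 caMKL1 against control (6030 and 6241 with TMM), 4425 and 8635 in LM2 caMKL1 against MKL1 (6150 and 6029), 918 and 1241 in LM2 MKL1 against control (1369 and 896), 4528 and 7580 in 4T1 caMKL1 against control (5900 and 5841), 4534 and 6690 in 4T1 caMKL1 against MKL1 (5505 and 5353), 2324 and 3868 in 4T1 MKL1 against control (3144 and 2449), 4655 and 6437 in LifeAct high against low (5828 and 5176), and 5554 and 2640 for the caMKL1 difference between lines (4028 and 3882). Depth limits E2F2 in LM2 caMKL1 cells most, with 12 to 23 counts a library.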
